A study of Mus musculus with 6 samples.

Results

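The genes described here encode the chaperones, disulfide isomerases, degradation factors and protein translocation machinery of the endoplasmic reticulum (ER), together with sensors of the unfolded protein response. They were chosen by name for their known function, by a rule that sets no threshold on measured values but was written with earlier results of these data known, and all 36 names were found among the 49315 genes of the expression table. RNA-Seq was performed on mature osteoclasts, the bone-resorbing cells formed by fusion of precursors given RANKL, and on those precursors, bone marrow macrophages (BMMs). The osteoclast group holds 3 libraries of WT cells taken at day 4 after culture with 75 ng/mL recombinant RANKL, and the BMM group holds 3 libraries of untreated WT cells taken at day 0. Both media contained supernatant of CMG14-12 cells, a source of M-CSF, at a higher share in the growth medium of BMMs than in the differentiation medium. No library comes from cells kept for 4 days without RANKL, so effects of RANKL, M-CSF supply and time in culture cannot be told apart. The labels name neither animals nor cultures behind the biological replicates, and the strain, sex and age are not given there, so p-values reflect spread between libraries that may be technical. Values are TPM, a measure of transcript abundance, which are scaled to gene length and to a sum of 1000000 per library, and which keep no record of the number of reads.

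Secreted and membrane proteins enter the ER through the Sec61 channel, lose their signal peptide, receive glycans and fold with the help of chaperones such as BiP. Proteins that fail to fold are drawn back to the cytosol and destroyed, which is called ER-associated degradation. When unfolded proteins accumulate, the sensors IRE1, ATF6 and PERK start the unfolded protein response: IRE1 splices the Xbp1 mRNA, ATF6 is cleaved to a transcription factor, and PERK phosphorylates eIF2α, which slows translation and favours that of ATF4. ATF6 with NF-Y and XBP1 act on the ER stress response element (ERSE) in promoters of ER chaperone genes.

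The promoter sites of this response are shown first, because they are the sequence feature that several of the genes share and that their choice did not use. RefSeq promoter windows of build GRCm38.p6, from 250 bases before to 50 bases after the start of a gene, were matched for 30 of the 36 genes in 31 windows, with Ero1l listed there as Ero1a. The windows of Hyou1, Manf, Atf6, Derl1, Sec61a1 and Ssr2 were not analysed here. Distances are counted from the RefSeq start, while the gene coordinates printed further below are from the GENCODE annotation, and these starts can differ. The GENCODE start of Hspa5, chr2:34771970, lies upstream of its site. Exact matches were sought on both strands to ERSE (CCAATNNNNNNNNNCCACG), to ERSE-II (ATTGGNCCACG) and to the core of the unfolded protein response element (TGACGTGG). ERSE was found in 9 of 30 genes (30.0%), against 37 of the 27025 genes of the genome with a promoter window (0.137%). ERSE-II was found in 2 of 30 genes (6.67%) and in 12 genes of the genome (0.0444%). The response element core was in no window of the 30 genes and in 193 genes of the genome (0.714%). ERSE was defined on promoters of several of these genes, so the share is a description and not independent evidence of regulation. Both kinds of site end in the same CCACG, and no match of one kind overlapped a match of the other. The sites are listed 5′ to 3′ as read on the strand that holds the motif, with the fixed bases in capitals:
Hspa5, ERSE, 65 to 47 bases before the start, chr2:34772025-34772043: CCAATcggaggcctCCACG
Hsp90b1, ERSE, 212 to 194 bases before the start, chr10:86705638-86705656: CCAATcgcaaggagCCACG
Hsp90b1, ERSE, opposite strand, 107 to 89 bases before the start, chr10:86705533-86705551: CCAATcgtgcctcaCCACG
Dnajc3, ERSE, 105 to 87 bases before the start, chr14:118937827-118937845: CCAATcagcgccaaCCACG
Pdia6, ERSE, 98 to 80 bases before the start, chr12:17266491-17266509: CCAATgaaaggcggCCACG
Creld2, ERSE, opposite strand, 126 to 108 bases before the start, chr15:88819520-88819538: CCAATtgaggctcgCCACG
Calr, ERSE, opposite strand, 162 to 144 bases before the start, chr8:84847075-84847093: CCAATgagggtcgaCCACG
Canx, ERSE, 145 to 127 bases before the start, chr11:50325800-50325818: CCAATcaccacgctCCACG
Syvn1, ERSE, 44 to 26 bases before the start, chr19:6046532-6046550: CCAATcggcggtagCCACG
Derl3, ERSE, opposite strand, 156 to 138 bases before the start, chr10:75893242-75893260: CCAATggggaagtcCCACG
Herpud1, ERSE-II, 52 to 42 bases before the start, chr8:94386377-94386387: ATTGGgCCACG
Dnajb11, ERSE-II, bases 8 to 18 after the start, chr16:22857852-22857862: ATTGGcCCACG
Hsp90b1 carried a pair of exact ERSE matches on opposite strands, and each of the other genes listed carried 1 exact match. Sites that differ from the motif in a fixed base were not sought, so these are not full counts of sites.

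The whole 250 bases before the start are given for Hspa5, the gene on which such elements are best known. They are also given for Herpud1, which had the largest log2 fold change among the tested genes with a site. Both genes lie on the plus strand, and capitals mark the fixed bases of ERSE and ERSE-II:
Hspa5, chr2:34771840-34772089: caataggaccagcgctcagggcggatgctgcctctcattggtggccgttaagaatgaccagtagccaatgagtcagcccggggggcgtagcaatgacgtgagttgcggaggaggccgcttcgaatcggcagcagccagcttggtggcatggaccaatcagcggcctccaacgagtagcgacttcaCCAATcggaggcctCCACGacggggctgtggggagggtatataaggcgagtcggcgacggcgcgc
Herpud1, chr8:94386179-94386428: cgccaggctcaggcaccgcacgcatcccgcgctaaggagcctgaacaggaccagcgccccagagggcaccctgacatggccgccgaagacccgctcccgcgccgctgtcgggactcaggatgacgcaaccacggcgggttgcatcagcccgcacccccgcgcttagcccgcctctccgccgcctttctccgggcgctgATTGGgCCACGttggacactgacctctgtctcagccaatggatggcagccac
The Hspa5 site ends 47 bases and the Herpud1 site 42 bases before the start. G and C made up 61.3% of the Hspa5 window and 68.3% of the Herpud1 window, counted over the bases before and after the start.

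**Figure D1:**
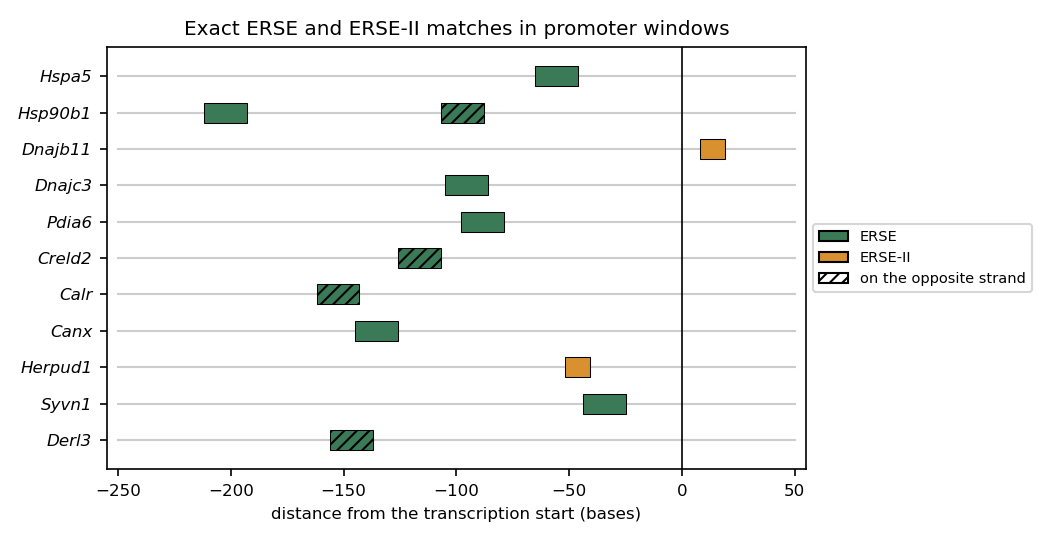
Position of each exact ERSE and ERSE-II match, in bases from the start of the gene (horizontal axis), in the promoter windows of the 11 genes that hold one. Colour gives the kind of site and hatching a site on the opposite strand. The sites of Syvn1, Herpud1 and Hspa5 are the nearest upstream of the start and the first site of Hsp90b1 is the farthest, at 212 bases.

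The groups bore out their labels by markers. All 17 osteoclast markers listed were higher in osteoclasts, and 16 of 18 macrophage markers were lower. Transcripts of other marrow cells differed as well, with 11 of 11 tested neutrophil markers lower and 4 of 5 tested stromal and osteoblast markers higher in osteoclasts. The summed level of 12 neutrophil markers was 17.2 to 28.7 TPM in osteoclasts, against 3093 to 3376 TPM in BMMs. Elane and Ly6g, chosen after their values were seen, were listed at 0 in all 3 osteoclast libraries. In BMMs, Elane averaged 85.2 TPM and Ly6g, which was not tested, 1.38 TPM. The summed level of 10 stromal and osteoblast markers was 114 to 142 TPM in osteoclasts, against 7.50 to 7.93 TPM in BMMs. The collagen genes Col1a1 (85.6 TPM) and Col1a2 (34.0 TPM) made up most of the sum in osteoclasts. Runx2 did not pass the test, and 5 markers, Sp7, Alpl and Bglap among them, stayed under 1 TPM in all 6 libraries. These genes were named after their values were seen. The part of other marrow cells in the results below was not tested. In bulk RNA, fewer cells of a type and less RNA per cell cannot be told apart. A small RNA locus, Gm23935, took 3.71%, 0.423% and 3.52% of all TPM in osteoclast replicates 1, 2 and 3, against 5.72% to 7.10% in BMMs, which changes the scale of every other gene. On log2(TPM + 1), Pearson's r across genes was 0.987 to 0.992 between osteoclast libraries, 0.995 to 0.996 between BMM libraries and 0.883 to 0.890 between the groups.

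The ER folding and translocation genes were abundant in both cell types and differed little between them. Their summed level was 5928, 6091 and 5573 TPM in osteoclasts, against 5204, 5268 and 5246 TPM in BMMs, or 0.557% to 0.609% of all TPM in osteoclasts and 0.520% to 0.527% in BMMs. In TPM, the 3 osteoclast libraries were all above the 3 BMM libraries. Median-ratio scaling, an alternative used below, divides TPM by 1.12, 1.06 and 1.06 in osteoclast replicates 1, 2 and 3. In BMM replicates 1, 2 and 3 it divides by 0.933, 0.918 and 0.944. Sums here and below were not rescaled, so their direction may depend on scaling. The 5 most abundant genes, Calr, P4hb, Hspa5, Pdia3 and Hsp90b1, made up 53.8% to 54.4% of that sum in osteoclasts and 52.6% to 52.9% in BMMs, in the same order of mean level in both. These shares compare levels per length on the TPM scale.

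Of the 36 genes, 35 passed the filter on low values (6-library mean of 1 TPM or more), and the lowest single value among these 35 was 7.78 TPM. With limma on log2(TPM + 1) and adjustment over all 12325 genes tested, 16 of the 35 were higher in osteoclasts, 5 were lower and 14 did not pass an adjusted p of 0.05. Over all genes tested, 68.9% passed in either direction, 45.3% were higher and 23.5% were lower. The share of ER genes called higher, 16 of 35, was therefore near that of all genes, and the share called lower was below it. The log2 fold changes ran from -0.48 for Edem2 to 1.10 for Ssr2 with a median of 0.16, below the 0.19 of all genes tested. Only Ssr2 passed the test with a log2 fold change of 1 or more in size, which 21.2% of all genes did. In 21 of the 35 genes the values of the groups did not overlap, and 73.5% of all genes tested had groups without overlap.

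Since the median of all genes was 0.19 above 0, direction depended on scaling for the small differences. After median-ratio scaling, which brought the median of all genes to 0.0042, 7 of the 35 genes were higher and 9 were lower, with a median of -0.043. Over all genes, 33.7% were higher and 33.5% were lower on that scale. These shares, and those in TPM above, are the background for the counts by role and by list below. The calls shared by both scales were 7 higher (Hyou1, Ero1l, Calr, Herpud1, Sec61b, Ssr2 and Ssr4) and 5 lower (Sdf2l1, Pdia4, Pdia6, Edem2 and Derl1). These 12 genes were also called in the same direction with quantile normalization and after rescaling without the most abundant genes. The other 9 genes that were higher in TPM did not pass after median-ratio scaling, where their log2 fold changes ran from -0.020 to 0.15.

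**Figure D2:**
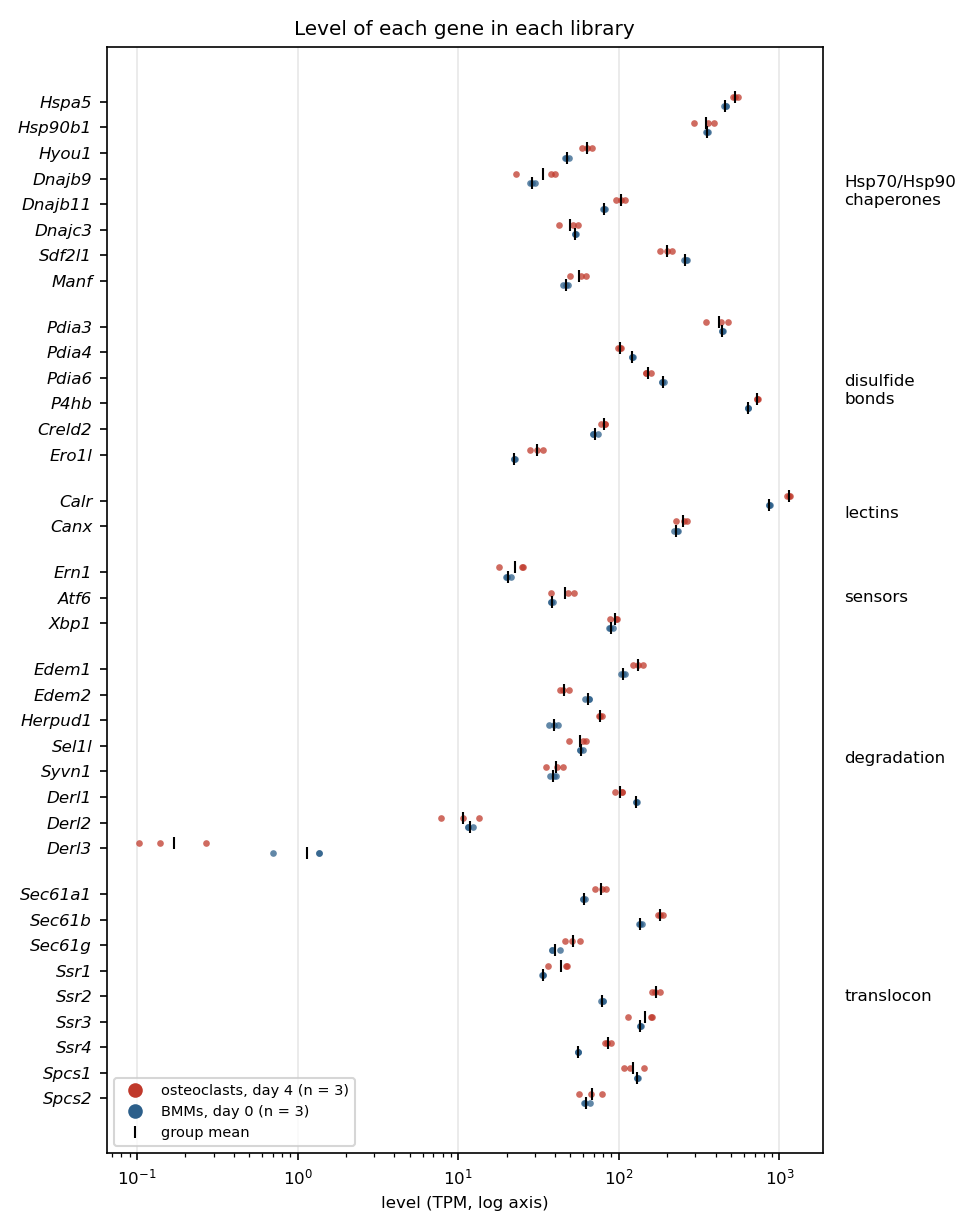
Level in TPM of each gene (log axis) in each of the 3 osteoclast and 3 BMM libraries, with genes grouped by role. Calr was the most abundant gene in both groups, Derl3 was the lowest, and the points of Ssr2 and Herpud1 in osteoclasts are well apart from those in BMMs.

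BiP and its partners went in both directions. Of the 8 Hsp70 and Hsp90 chaperones and partners, 4 were higher (Hspa5, Hyou1, Dnajb11 and Manf), 1 was lower (Sdf2l1) and 3 did not pass the test, with a median log2 fold change of 0.18, while after median-ratio scaling 1 was higher and 2 were lower, with a median of -0.025. Their summed level was 1384 ± 85.1 TPM in osteoclasts and 1334 ± 19.1 TPM in BMMs (SD, n = 3 each), a ratio of 1.04. Hspa5 (ENSMUSG00000026864, chr2:34771970-34777547, plus strand), which encodes BiP, the main Hsp70 of the ER, measured 531, 552 and 511 TPM in osteoclasts, against 452, 468 and 464 TPM in BMMs, listed by replicate 1, 2 and 3 as in all values that follow. The groups did not overlap. The log2 fold change of Hspa5 was 0.20 (SE 0.048, limma adjusted p = 0.0057), with SE the standard error, close to the median of all genes, and after median-ratio scaling it was -0.0078 and did not pass the test. Hyou1, a large Hsp70 relative that helps BiP exchange its nucleotide, measured 63.0, 59.0 and 68.2 TPM in osteoclasts, against 46.7, 49.2 and 46.2 TPM in BMMs. Its log2 fold change of 0.41 (SE 0.068, limma adjusted p = 8.0e-04) was the largest of this role, with no overlap, and it stayed past the threshold after median-ratio scaling (0.20).

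The J-domain proteins, which hand unfolded clients to BiP, did not move alike. Dnajb11, an abundant J protein of the ER lumen with an ERSE-II site, had 104, 109.9 and 96.2 TPM in osteoclasts, against 80.3, 82.1 and 80.3 TPM in BMMs, without overlap, for a log2 fold change of 0.35 (SE 0.061, limma adjusted p = 0.0012). Dnajb9, a J protein that also holds IRE1 inactive, had 37.9, 39.9 and 22.9 TPM in osteoclasts, against 28.1, 30.0 and 28.9 TPM in BMMs. Osteoclast replicate 3 lay below all BMM libraries and replicates 1 and 2 above them, so the groups overlapped and the log2 fold change of 0.16 did not pass the test (95% interval -0.27 to 0.59, adjusted p = 0.46 from limma). Dnajc3, a J protein known as an inhibitor of PERK, had 55.3, 52.2 and 42.5 TPM in osteoclasts, against 53.0, 53.3 and 54.0 TPM in BMMs. The groups overlapped, with a log2 fold change of -0.10 that did not pass (95% interval -0.32 to 0.12), and the gene was lower after median-ratio scaling (-0.31). Sdf2l1 (ENSMUSG00000022769, chr16:17130138-17132383, minus strand) encodes a luminal protein that forms a complex with the Dnajb11 product. In contrast to Dnajb11, it measured 180.2, 199.6 and 215 TPM in osteoclasts, against 254, 261 and 264 TPM in BMMs. All 3 osteoclast libraries were below all BMM libraries, and the log2 fold change was -0.39 (SE 0.069, limma adjusted p = 0.0011). The ratio of means, osteoclasts over BMMs, was 0.763 for Sdf2l1 and 1.28 for Dnajb11.

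The remaining chaperones are the Hsp90 of the ER and a cofactor of BiP. Hsp90b1, which encodes Grp94, had 357, 393 and 292 TPM in osteoclasts, against 351, 353 and 361 TPM in BMMs. Osteoclast replicate 3 was the lowest of the 6 libraries and replicate 2 the highest, and the log2 fold change of -0.042 did not pass the test (95% interval -0.27 to 0.19, adjusted p = 0.72 from limma). Of its exonic bases, 10.3% overlap genes on the opposite strand and 5.38% genes on the same strand. Manf, a small protein that binds BiP and is secreted under stress, had 57.8, 62.4 and 49.7 TPM in osteoclasts, against 46.9, 48.5 and 45.1 TPM in BMMs. The groups did not overlap, and the log2 fold change of 0.26 (SE 0.086, limma adjusted p = 0.025) lost its call when any 1 of osteoclast replicates 1 and 2 and BMM replicates 1 and 3 was left out.

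Among the enzymes of disulfide bonds, the oxidase and the main isomerase were higher and 2 further isomerases were lower. Of these 6 genes, 3 were higher (Ero1l, P4hb and Creld2), 2 were lower (Pdia4 and Pdia6) and Pdia3 did not pass the test, while after median-ratio scaling 1 was higher and 3 were lower. Their summed level was 1512 ± 77.4 TPM in osteoclasts and 1482 ± 6.74 TPM in BMMs (SD, n = 3 each), a ratio of 1.02. Ero1l encodes the oxidase that recharges protein disulfide isomerase and measured 33.5, 30.9 and 27.8 TPM in osteoclasts, against 22.3, 22.1 and 22.6 TPM in BMMs. There was no overlap, and the log2 fold change of 0.44 (SE 0.077, limma adjusted p = 0.0011) was the largest of this role. P4hb, the most abundant disulfide isomerase here and also a subunit of the collagen prolyl hydroxylase, had 724, 737 and 727 TPM in osteoclasts, against 635, 641 and 639 TPM in BMMs. Its groups did not overlap at a log2 fold change of 0.19 (SE 0.042, limma adjusted p = 0.0036), but after median-ratio scaling the sign turned and the value of -0.020 did not pass. The same held for Creld2, a stress-induced ER protein with an ERSE, at 0.19 in TPM (77.7, 81.8 and 82.5 TPM in osteoclasts, against 69.3, 73.8 and 68.6 TPM in BMMs) and -0.020 after median-ratio scaling, and its call was also lost without BMM replicate 1 or BMM replicate 3.

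Pdia6 and Pdia4 encode isomerases that bind BiP or work beside it. Pdia6 had 147, 158 and 148 TPM in osteoclasts, against 186, 191 and 185 TPM in BMMs, a log2 fold change of -0.31 (SE 0.051, limma adjusted p = 7.9e-04). Pdia4 had 103, 101 and 99.4 TPM in osteoclasts, against 121, 121 and 122 TPM in BMMs, a log2 fold change of -0.26 (SE 0.046, limma adjusted p = 0.0011). Both were lower in every osteoclast library than in any BMM library. Pdia3, the isomerase that acts with calnexin and calreticulin, had 431, 477 and 347 TPM in osteoclasts, against 441, 440.4 and 444 TPM in BMMs. Osteoclast replicate 2 was the highest and replicate 3 the lowest of the 6, and the log2 fold change of -0.091 did not pass (95% interval -0.33 to 0.15), though it was lower after median-ratio scaling (-0.30).

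The 2 lectin chaperones hold glycoproteins while they fold. Calr (ENSMUSG00000003814, chr8:84841850-84846934, minus strand) encodes calreticulin, which also stores calcium in the ER lumen, and was the most abundant of the 36 genes. It measured 1164, 1154 and 1121 TPM in osteoclasts, against 860.5, 872 and 866 TPM in BMMs. The osteoclast libraries were all above the BMM libraries, with a log2 fold change of 0.40 (SE 0.043, limma adjusted p = 5.7e-05) and of 0.19 after median-ratio scaling, which also passed. Canx, the membrane-bound calnexin, had 267, 254 and 228 TPM in osteoclasts, against 220.0, 231 and 233 TPM in BMMs. The groups overlapped through osteoclast replicate 3, and the log2 fold change of 0.13 did not pass the test (95% interval -0.024 to 0.28, adjusted p = 0.12 from limma), although it did at 0.19 without that replicate. The intervals of Calr and Canx do not overlap.

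The sensor genes Ern1 and Atf6 and the transcription factor gene Xbp1 did not pass the test. Eif2ak3, the gene of the sensor PERK, is not among the 36 genes. It was higher in osteoclasts in TPM (log2 fold change 0.37, 95% interval 0.19 to 0.56). That interval overlaps the one of Atf6, and the call of Eif2ak3 after median-ratio scaling is not given here. Of Ern1, Atf6 and Xbp1, 0 were called in limma, and 1, Atf6, had an unadjusted p under 0.05. Ern1 encodes IRE1α and had 25.2, 18.0 and 24.9 TPM in osteoclasts, against 19.9, 20.05 and 21.3 TPM in BMMs. Atf6, the sensor that becomes a transcription factor, had 52.8, 38.0 and 48.2 TPM in osteoclasts, against 38.9, 37.9 and 37.9 TPM in BMMs. Both genes were lowest in osteoclast replicate 2 among the osteoclast libraries. Their log2 fold changes were 0.13 for Ern1 (95% interval -0.15 to 0.42, adjusted p = 0.36 from limma) and 0.26 for Atf6 (95% interval 0.00044 to 0.51, adjusted p = 0.070 from limma). In TPM, both passed without osteoclast replicate 2, at 0.29 for Ern1 and 0.39 for Atf6. Xbp1, whose spliced mRNA encodes the active factor, had 96.3, 97.8 and 88.0 TPM in osteoclasts, against 86.9, 92.5 and 87.6 TPM in BMMs. The groups overlapped, with a log2 fold change of 0.078 (95% interval -0.062 to 0.22, adjusted p = 0.28 from limma). After median-ratio scaling, the log2 fold changes were -0.068 for Ern1, 0.050 for Atf6 and -0.13 for Xbp1, and none passed the test. Values per gene do not separate the spliced from the unspliced form of Xbp1, so the activity of IRE1 was not measured.

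Herpud1 stood apart among the degradation genes. It encodes a membrane protein of the Hrd1 ubiquitin ligase complex, is itself a target of the response and carries the ERSE-II printed above (ENSMUSG00000031770, chr8:94386438-94395377, plus strand). It measured 75.1, 76.2 and 78.1 TPM in osteoclasts, against 41.9, 36.8 and 39.7 TPM in BMMs. The lowest osteoclast library was well above the highest BMM library, the ratio of means was 1.94, and the log2 fold change was 0.94 (SE 0.063, limma adjusted p = 3.8e-06) and 0.73 after median-ratio scaling. The ligase Syvn1 (Hrd1) had 41.3, 35.3 and 45.0 TPM in osteoclasts, against 39.6, 37.3 and 40.5 TPM in BMMs, and its adaptor Sel1l had 62.9, 49.0 and 59.5 TPM in osteoclasts, against 59.5, 57.7 and 57.6 TPM in BMMs. The groups overlapped in both, and osteoclast replicate 2 was the lowest of the 6 libraries. Syvn1 had a log2 fold change of 0.045 (95% interval -0.17 to 0.26) and Sel1l one of -0.036 (95% interval -0.25 to 0.18), and neither passed the test, though Sel1l was lower after median-ratio scaling (-0.24). The 95% interval of Herpud1, 0.79 to 1.08, lay above both.

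The EDEM proteins, which mark misfolded glycoproteins for degradation by mannose trimming, went opposite ways. Edem2 (ENSMUSG00000038312, chr2:155701677-155729475, minus strand) measured 43.2, 44.9 and 49.0 TPM in osteoclasts, against 61.2, 65.1 and 65.6 TPM in BMMs. All osteoclast libraries were below all BMM libraries, and its log2 fold change of -0.48 (SE 0.066, limma adjusted p = 2.7e-04) was the lowest of the 35. Edem1 measured 142, 132 and 122 TPM in osteoclasts, against 109, 106 and 103 TPM in BMMs, without overlap, a log2 fold change of 0.31 (SE 0.066, limma adjusted p = 0.0031). After median-ratio scaling Edem2 remained lower (-0.69) while Edem1 no longer passed (0.10). The derlins help draw proteins back to the cytosol. Derl1 had 105, 105 and 95.2 TPM in osteoclasts, against 128, 128 and 129.8 TPM in BMMs, lower in every osteoclast library, a log2 fold change of -0.33 (SE 0.056, limma adjusted p = 8.9e-04). Derl2 had 10.8, 13.4 and 7.78 TPM in osteoclasts, against 11.5, 11.5 and 12.4 TPM in BMMs and did not pass (log2 fold change -0.17, 95% interval -0.54 to 0.21). Of the 7 degradation genes tested, 2 were higher and 2 lower in TPM, and 1 was higher and 3 lower after median-ratio scaling. The summed level of all 8 was 464 ± 13.9 TPM in osteoclasts and 448 ± 4.19 TPM in BMMs (SD, n = 3 each), a ratio of 1.04.

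Derl3 was the gene not tested, as its mean over the 6 libraries was under 1 TPM. Its values were 0.139, 0.269 and 0.104 TPM in osteoclasts, against 1.37, 1.36 and 0.6998 TPM in BMMs, and the groups did not overlap. Derl3 is known for its high level in secretory cells such as plasma cells. Of 12 B and plasma cell markers 6 passed the filter, of which 5 were lower and 1, Sdc1, was higher in osteoclasts, and the summed level of the 12 was 302 to 329 TPM in osteoclasts, against 176 to 191 TPM in BMMs. Sdc1, at 309 TPM in osteoclasts and 18.5 TPM in BMMs, made up most of the sum in osteoclasts. Jchain averaged 0.0833 TPM in osteoclasts and 5.01 TPM in BMMs, and Ighm 1.26 TPM in osteoclasts and 59.4 TPM in BMMs. These 3 genes were chosen after their values were seen, and the part of such cells in the Derl3 values was not tested.

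The genes of protein entry had the highest median among the roles. Of the 9 translocon and signal peptidase genes, 6 were higher and the rest did not pass, at a median log2 fold change of 0.35, while after median-ratio scaling 3 were higher and 1, Spcs1, was lower. The share of all genes called higher was 45.3% in TPM and 33.7% after median-ratio scaling, so 3 of 9 was near that share. The summed level of the 9 genes was 945 ± 71.6 TPM in osteoclasts and 734 ± 6.92 TPM in BMMs (SD, n = 3 each), a ratio of 1.29. Ssr2 (ENSMUSG00000041355, chr3:88575876-88588419, plus strand) encodes the beta subunit of the translocon-associated protein (TRAP) complex, which helps some signal peptides open the Sec61 channel. It measured 161, 181 and 169 TPM in osteoclasts, against 79.3, 79.6 and 77.7 TPM in BMMs. The groups were far apart, with a ratio of means of 2.16 and a log2 fold change of 1.10 (SE 0.058, limma adjusted p = 9.6e-07). Of its exonic bases, 12.8% overlap Gm10704 on the opposite strand, which was listed at 0.285 to 0.657 TPM in osteoclasts and 0.171 to 0.332 TPM in BMMs. Of its 50-base exon windows, 11.0% recur in other annotated genes, most of them in Rtraf, which was listed at 179 to 225 TPM in osteoclasts and 166 to 179 TPM in BMMs. How reads of these windows were assigned is not known, so part of the Ssr2 level is uncertain.

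The other TRAP subunits had smaller differences. Ssr4, the delta subunit, measured 84.8, 89.7 and 81.5 TPM in osteoclasts, against 55.7, 55.4 and 55.8 TPM in BMMs, a log2 fold change of 0.61 (SE 0.056, limma adjusted p = 2.4e-05) without overlap. Ssr1, the alpha subunit, had 46.6, 47.4 and 36.04 TPM in osteoclasts, against 33.4, 33.7 and 33.5 TPM in BMMs and a log2 fold change of 0.35 (SE 0.10, limma adjusted p = 0.016), which lost its call without osteoclast replicate 1. Ssr3, the gamma subunit, had 158, 162 and 114 TPM in osteoclasts, against 136, 136 and 137 TPM in BMMs. Its osteoclast replicate 3 was the lowest of the 6 libraries while replicates 1 and 2 were the highest, and the log2 fold change of 0.067 did not pass (95% interval -0.22 to 0.35). The 95% interval of Ssr2, 0.97 to 1.23, overlapped none of the intervals of the other 3 subunits. On the TPM scale, which is per length, Ssr2 was above Ssr3 in each osteoclast library and below it in each BMM library.

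The 3 subunits of the Sec61 channel were higher in osteoclasts. Sec61a1, the pore, had 79.1, 71.1 and 82.9 TPM in osteoclasts, against 59.9, 61.7 and 60.1 TPM in BMMs, a log2 fold change of 0.35 (SE 0.067, limma adjusted p = 0.0018). Sec61b had 176, 189 and 180.3 TPM in osteoclasts, against 139.9, 136 and 133 TPM in BMMs, a log2 fold change of 0.41 (SE 0.051, limma adjusted p = 1.5e-04). Sec61g had 51.3, 57.4 and 46.4 TPM in osteoclasts, against 43.1, 38.6 and 38.6 TPM in BMMs, a log2 fold change of 0.36 (SE 0.088, limma adjusted p = 0.0069). None of the 3 had overlapping groups, and after median-ratio scaling Sec61b alone passed (0.20). Of the 50-base windows of their exons, 17.4% in Sec61b and 14.8% in Sec61g recur in other annotated genes, so these levels are less certain. Spcs1 and Spcs2, subunits of the signal peptidase that removes signal peptides, did not pass the test. Spcs1 had 117, 143 and 108 TPM in osteoclasts, against 129.9, 131 and 129 TPM in BMMs, a log2 fold change of -0.092 (95% interval -0.31 to 0.13). Spcs2 had 67.6, 78.4 and 56.9 TPM in osteoclasts, against 61.8, 65.8 and 60.8 TPM in BMMs, a log2 fold change of 0.095 (95% interval -0.16 to 0.34). In both, replicate 3 was the lowest osteoclast library. Of the exonic bases of Spcs1, 16.3% overlap Glt8d1 on the opposite strand.

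**Figure D3:**
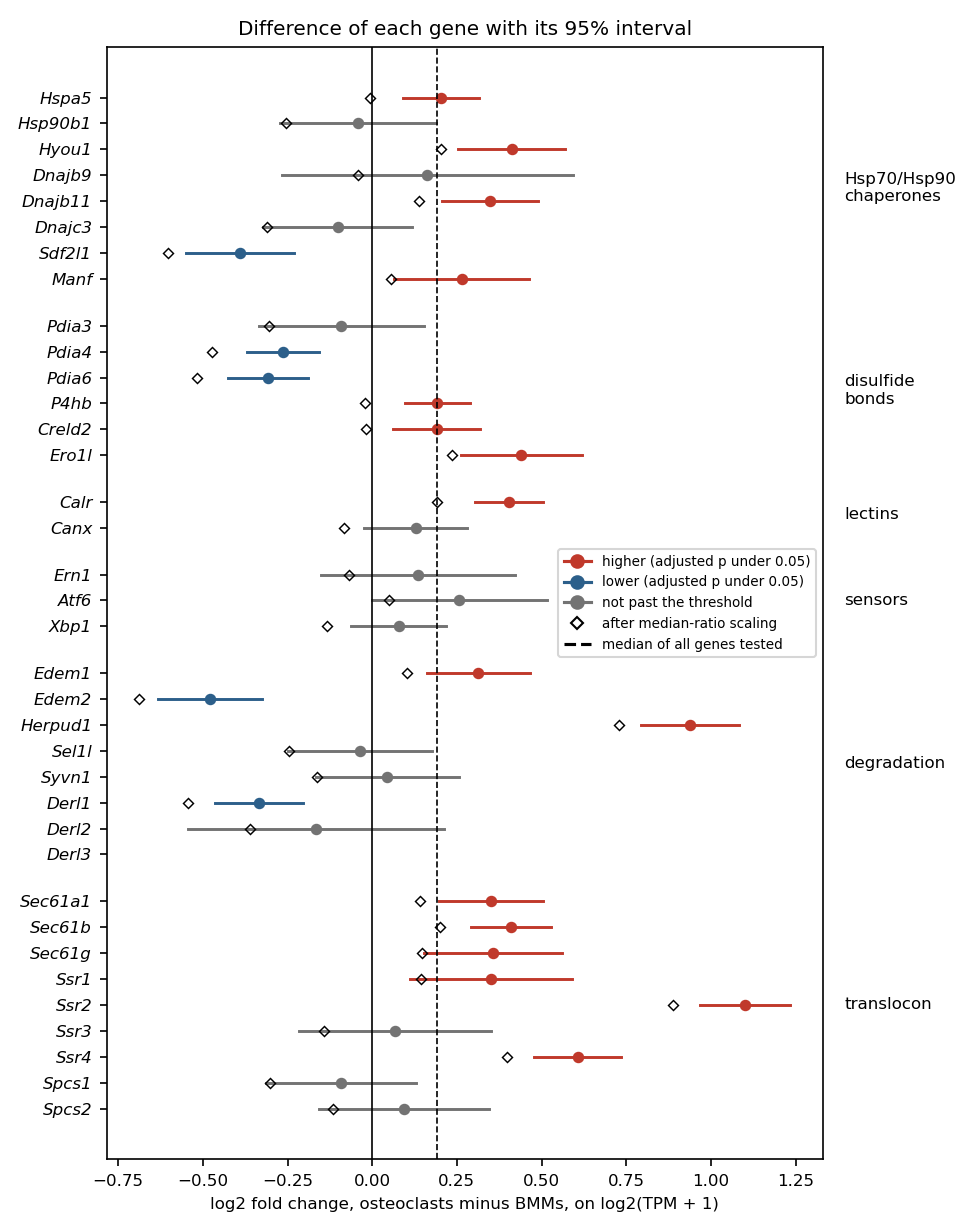
Log2 fold change of each gene, osteoclasts minus BMMs, on log2(TPM + 1), with its 95% interval from limma and, as a diamond, the value after median-ratio scaling. Ssr2 (1.10) and Herpud1 (0.94) lie farthest to the right and Edem2 (-0.48) farthest to the left. The dashed line is the median of all genes tested (0.19), and Derl3, which was not tested, has no point.

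Spread was larger in the osteoclast group than in the BMM group. The median SD of the 35 genes on the log2 scale was 0.11 in osteoclasts and 0.025 in BMMs, and over all genes tested it was 0.13 in osteoclasts and 0.052 in BMMs. Osteoclast replicate 3 had the lowest of the 3 osteoclast values in 21 of the 35 genes (60.0%), against 37.7% of all genes, and replicate 2 had the highest in 19 (54.3%), against 30.0% of all genes. In 6 genes, Hyou1, Ern1, Atf6, Sel1l, Syvn1 and Sec61a1, replicate 2 was the lowest. Without osteoclast replicate 3, 21 genes were higher and 5 lower, as Dnajb9 (0.41), Canx (0.19), Xbp1 (0.12), Ssr3 (0.23) and Spcs2 (0.21) gained a call. Without osteoclast replicate 2, 17 were higher and 6 lower, as Ern1 and Atf6 gained a call toward osteoclasts and Spcs1 (-0.21) toward BMMs. The part of Gm23935, whose share of TPM was lowest in osteoclast replicate 2, was not tested.

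**Figure D4:**
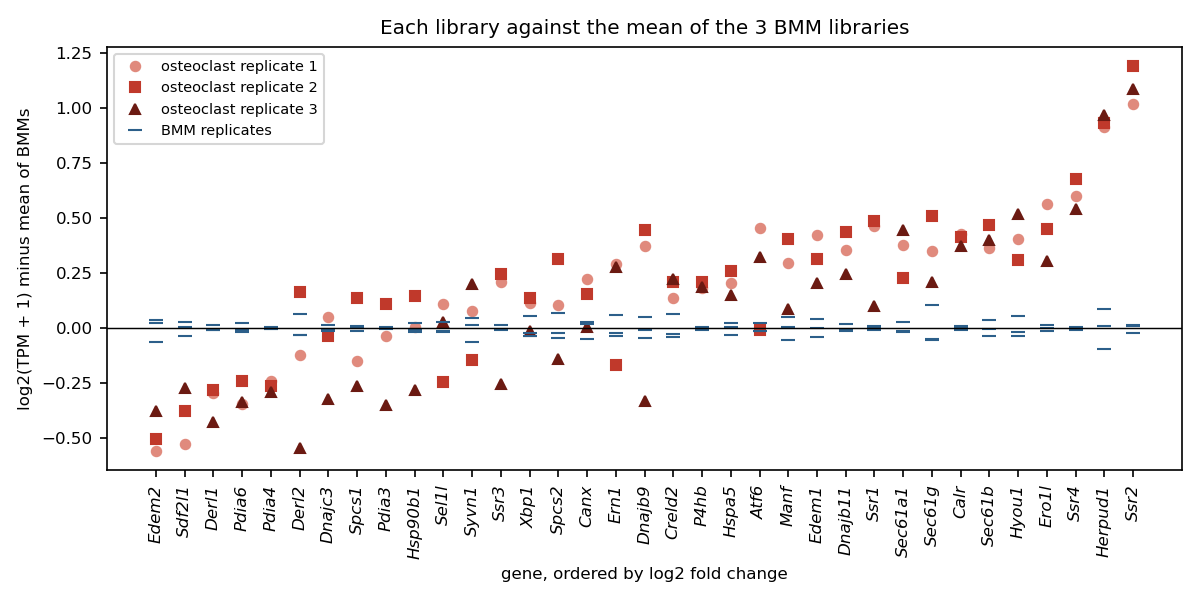
Value of each library on log2(TPM + 1) minus the mean of the 3 BMM libraries, with the 35 tested genes ordered by log2 fold change. BMM points lie close to 0 in nearly all genes, osteoclast replicate 3 is the lowest osteoclast point in 21 of 35 genes, and Ssr2 and Herpud1 at the right end have 3 osteoclast points far above 0.

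Of the other stress signalling genes listed, Chac1 and Atf4 were higher in osteoclasts, and Chac1 had the largest log2 fold change of the further ER genes listed. The activity of PERK was not measured. Of 17 other stress signalling genes, 15 passed the filter on low values, 10 were higher and the other 5 did not pass, at a median log2 fold change of 0.37, and after median-ratio scaling 7 were higher and 3 were lower. The share of all genes called higher was 45.3% in TPM and 33.7% after median-ratio scaling. Chac1, a glutathione-degrading enzyme induced by ATF4, measured 34.7, 31.5 and 40.6 TPM in osteoclasts, against 4.41, 3.48 and 3.16 TPM in BMMs, a log2 fold change of 2.97 (SE 0.13, limma adjusted p = 3.3e-07). Atf4 itself, the transcription factor translated when eIF2α is phosphorylated, measured 475, 526 and 491 TPM in osteoclasts, against 211, 209 and 206 TPM in BMMs, a log2 fold change of 1.25 (SE 0.053, limma adjusted p = 3.1e-07). Osteoclast values of both genes were all far above those of BMMs. Ppp1r15a (Gadd34), which directs the removal of phosphate from eIF2α, averaged 34.95 ± 1.38 TPM in osteoclasts and 17.6 ± 0.551 TPM in BMMs (SD, n = 3 each), and its log2 fold change was 0.95 (SE 0.062, limma adjusted p = 3.3e-06). Ddit3 and Trib3, which are also known as ATF4 targets, did not pass the test. Ddit3, which encodes CHOP, averaged 32.3 ± 2.57 TPM in osteoclasts and 33.7 ± 2.63 TPM in BMMs (SD, n = 3 each), and its log2 fold change was -0.062 (95% interval -0.25 to 0.13), and Trib3, a pseudokinase, had -0.17 (95% interval -0.34 to -0.0018, adjusted p = 0.068 from limma).

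Of the remaining stress signalling genes, the ER-anchored transcription factors Creb3l2 (1.28), Creb3l1 (1.20) and Creb3 (0.31) were higher in TPM on the log2 scale. So were the proteases that cleave such factors and ATF6, Mbtps1 (0.60) and Mbtps2 (0.41), the eIF2α phosphatase subunit Ppp1r15b (0.32), and Eif2ak3 (0.37), which encodes PERK. Calls of single stress signalling genes after median-ratio scaling are not given here. Creb3l1 averaged 18.7 ± 1.05 TPM in osteoclasts and 7.56 ± 0.437 TPM in BMMs (SD, n = 3 each). Atf6b, a relative of Atf6 (0.079), Wfs1, an ER membrane protein (-0.16), and Creb3l3, another ER-anchored factor (-0.15), did not pass the test. Ern2 and Bhlha15 were not tested.

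Other genes of ER protein entry and glycosylation were also higher or did not pass, with few exceptions. Of the 12 genes of the oligosaccharyltransferase, which adds the glycan, 9 were higher and 3 did not pass (median log2 fold change 0.32), from Krtcap2 (0.58) and Tmem258 (0.50) to Ost4 (0.0054) and Tusc3 (-0.015). Of the 10 genes of the ER membrane complex, which inserts membrane proteins, 7 were higher and 3 did not pass (median 0.28), led by Emc6 (1.21) and Emc4 (0.89), while Emc1 (0.15) and Emc9 (-0.075) were among those that did not. After median-ratio scaling, 4 oligosaccharyltransferase genes were higher and 2 lower, and 3 genes of the ER membrane complex were higher and 1 lower. The share of all genes called higher was 45.3% in TPM and 33.7% on that scale. Of the 17 other translocon, targeting and signal peptidase genes tested, 9 were higher and 2 lower (median 0.24), and after median-ratio scaling 7 were higher and 4 lower (median 0.031). Sec11c, a catalytic subunit of the signal peptidase (1.45), and Srp68, a subunit of the signal recognition particle (0.91), were the highest, and Tram1 (-0.34) and Tram2 (-0.32), which assist translocation, were the lower ones. Sec11c measured 143, 164 and 135 TPM in osteoclasts, against 53.4, 52.8 and 53.0 TPM in BMMs, a larger difference than in Spcs1 and Spcs2 of the same enzyme.

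Folding and degradation genes outside the 36 were more mixed. Of 8 genes of the calnexin cycle and glycan trimming tested, 6 were higher and 2 did not pass (median 0.39), and after median-ratio scaling 4 were higher and 2 lower (median 0.18). Mogs (1.32), the glucosidase that removes the first glucose, and Prkcsh (0.64), a subunit of the second glucosidase, were the highest, and Man1b1 (-0.036), a mannosidase, and Uggt1 (-0.19), which senses folding, did not pass. Of 28 other folding and disulfide genes tested, 12 were higher and 6 lower (median 0.14), while after median-ratio scaling the balance turned to 9 higher and 10 lower (median -0.066). They ran from the prolyl isomerases Fkbp10 (2.40) and Fkbp11 (2.05) to Cnpy4 (-0.59) and the selenoprotein Selenom (-0.87). Fkbp10, a collagen chaperone, averaged 7.72 ± 1.29 TPM in osteoclasts and 0.656 ± 0.292 TPM in BMMs (SD, n = 3 each), beside the stromal markers that were also higher, and their part was not tested. Of 24 other degradation genes, 13 were higher and 4 lower (median 0.23), from Ube2g2 (0.70), a ubiquitin-conjugating enzyme, and Ubxn4 (0.65) to the ubiquitin ligases Rnf139 (-0.28) and Rnf185 (-0.28). After median-ratio scaling, 8 degradation genes were higher and 4 lower (median 0.024). The median of all genes tested was 0.19 in TPM.

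**Figure D5:**
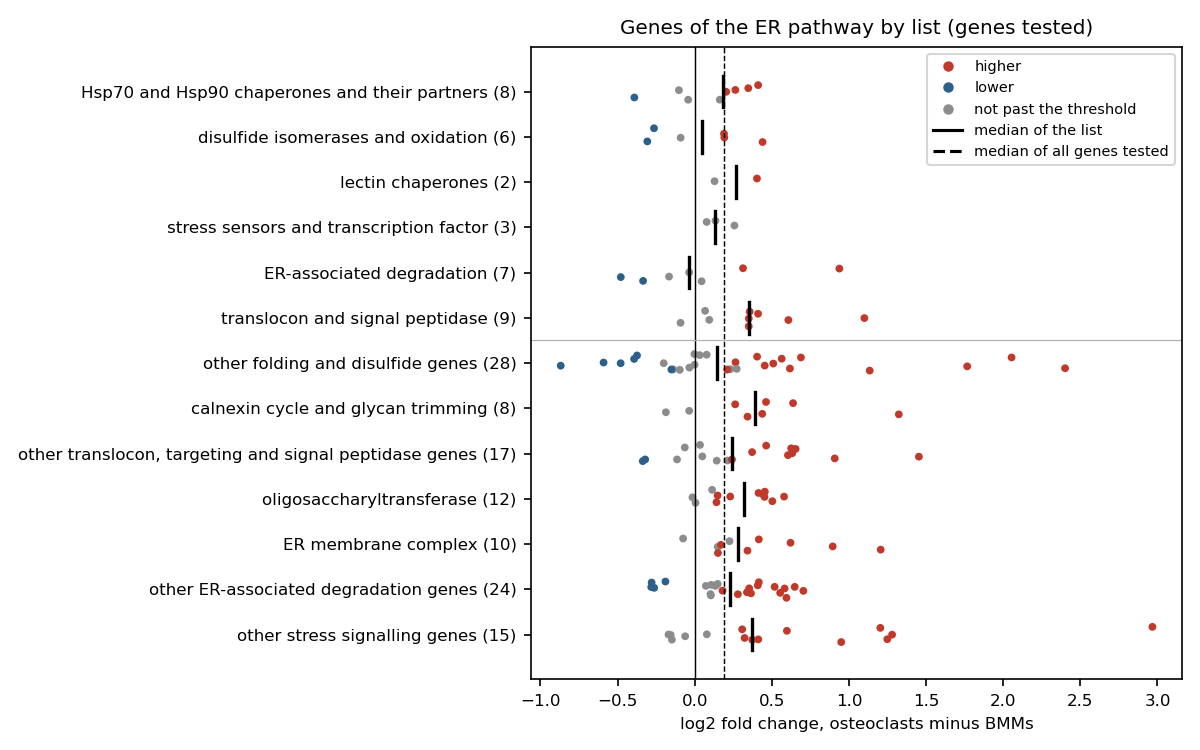
Log2 fold change, osteoclasts minus BMMs, of each tested gene by role (the 6 upper groups, which hold the 35 tested genes) and by list of further ER genes (the 7 lower groups), with the number of genes tested in brackets. Short lines are the medians of the groups and the dashed line is that of all genes tested (0.19). The point farthest to the right is Chac1 (2.97).

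Genes with an exact ERSE or ERSE-II match, called a site here, did not share a direction. Of the 10 tested genes with a site, 5 were higher (Hspa5, Dnajb11, Creld2, Calr and Herpud1), 1 was lower (Pdia6) and 4 did not pass (Hsp90b1, Dnajc3, Canx and Syvn1), with log2 fold changes from -0.31 to 0.94 around a median of 0.16. Of the 19 tested genes whose windows held no exact match to either, 7 were higher, 3 were lower and 9 did not pass, with log2 fold changes from -0.48 to 0.61 around a median of 0.095. Over all genes tested, 45.3% were higher and 23.5% were lower. After median-ratio scaling, Calr and Herpud1 of the genes with a site were higher, Pdia6 and Dnajc3 were lower and the others did not pass. Of those without an exact match, Ero1l, Sec61b and Ssr4 were higher, and Sdf2l1, Pdia3, Pdia4, Edem2, Sel1l and Spcs1 were lower. These are descriptions of both sets, and no test was made between them. The sites of Calr and Pdia6, a pair chosen after the values were seen, have the same fixed bases because only exact matches were sought. These sites differ in strand and in distance from the start, and the genes differed in direction.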

How the data were processed

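RNA-Seq was performed on total RNA of 3 osteoclast and 3 BMM libraries. By the study's methods and the processing notes of the submitters, 150-base paired reads were demultiplexed using bcl2fastq 2.17, adapters were removed using Trimmomatic 0.36, and STAR 2.5.2b aligned the reads to mm10 (GRCm38) before hits per gene were taken. The authors deposited one TPM value per gene and library. Not given in the sources used here are the counting tool, how it treated strand and multiply matching reads, and how TPM was made, so genes that overlap on either strand may share reads. The TPM values hold no depth, so counting intervals and count models were not used.

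Genes were matched by identifier (48970 of 49315 in GENCODE vM21, with 176 gene names missing). Those averaging 1 TPM or more were tested on log2(TPM + 1) by limma 3.58.1 under R 4.3.3 (intensity trend, two-sided, Benjamini-Hochberg over all genes tested, threshold 0.05). Fold changes on this scale understate those of low genes. A two-sided exact test of 3 against 3 libraries could not go below p = 0.1 and was not used. This fit was first tested on simulated data. The text names all 36 genes, the 2 largest and 2 smallest differences of each further list, and all listed stress signalling genes. The genes and lists were chosen with earlier results of these data known. Alternatives were pseudocounts of 0.1 and 0.5, no filter or one at 5 TPM, median-ratio scaling, quantile scaling, rescaling that left out mitochondrially encoded and the 20 most abundant genes, an untrended limma fit, a replicate block, and each library left out. Shared sequence was counted in windows of 50 bases of GENCODE exons, and promoter sequences are from RefSeq. Tables and plots were made in Python 3.11.15 using pandas 2.3.3, NumPy 2.4.6 and matplotlib 3.10.9. Reads and other experiments of the study were not analysed here.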

Additional observations from a re-analysis of the deposited data

How the results depend on the processing

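The counts of ER genes called depended on scaling. Against 16 higher and 5 lower in osteoclasts in TPM, median-ratio scaling gave 7 higher and 9 lower, quantile normalization 7 higher and 9 lower, and rescaling without mitochondrially encoded and the 20 most abundant genes 8 higher and 8 lower. The median log2 fold change of these genes was -0.043, -0.037 and -0.0050 in that order, against 0.16 in TPM. Sign and call were lost together for Hspa5 (-0.0078) with median-ratio scaling, for P4hb (-0.020 with median-ratio scaling and -0.019 with quantile normalization) and for Creld2 (-0.020 and -0.0046). Median-ratio scaling brought the median of all genes to 0.0042, against 0.19 in TPM. With each library left out in turn, 14 to 21 genes were higher and 5 to 6 lower, with a median of 0.089 to 0.21. Pseudocounts of 0.1 and 0.5, a filter at 5 TPM and limma without the trend changed none of the 35 calls. With no filter, Manf lost its call and Derl3 was tested and lower. In all 15 alternatives, 15 of the 35 genes had the call they had in TPM, 7 of them higher, 5 lower and 3 not past the threshold. Replicates with the same number did not deviate together (r across genes of -0.049, -0.0028 and -0.068 for numbers 1, 2 and 3), and the fit with a replicate block gave 17 genes higher and 5 lower, with Atf6 gaining a call. The number of reads behind the low values of Derl3 is unknown.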

Other observations

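Over the genome, 37 of the 27025 genes with a RefSeq promoter window held an exact ERSE, 9 of them ER genes described above. Of these 37 genes, 12 were found under the same name among the genes that passed the filter on low values. Genes listed under another name were not counted, such as Ero1b, listed as Ero1lb, which did not pass the test (log2 fold change -0.20). Of the 12 genes, 7 were higher in osteoclasts and 1 was lower (limma, adjusted p under 0.05). Their median log2 fold change was 0.20, beside 0.19 for all genes tested. The 8 tested genes of the ER list are among these 12, with 3 higher and 1 lower.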
